A study of Mus musculus with 4 samples.

Results

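The genes described are 41 genes of sulphation and glycosaminoglycan chain synthesis, measured in growth plate cartilage of the mouse forelimb. They were listed by name for their place in the pathway, though with earlier results of these data known. They make up 41 of the 34547 genes formed from the transcript tables. The libraries came from C57BL/6 embryos, and in each the chondrocytes were cut by laser microdissection from cryosections of forelimbs. Proliferating chondrocytes (PC, replicates 1 and 2) were taken at E14.5 and hypertrophic chondrocytes (HC, replicates 3 and 4) at E15.5, with 2 libraries in each group. No genotype, allele or treatment other than the strain is named in the labels, and cell zone and age go together, so that their parts in any difference cannot be told apart. The labels do not say whether the replicates came from separate embryos, so p-values measure only the spread between these libraries, which may be technical.

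The glycosaminoglycans treated here, chondroitin, dermatan and heparan, are long sugar chains built on core proteins in the Golgi. A short linker of sugars is first placed on the core protein, and the chain is then extended as chondroitin or as heparan, with dermatan made from chondroitin by epimerisation of a uronic acid. Sulphate taken up by the cell is activated to the donor PAPS, carried into the Golgi and set on the chain by sulphotransferases. Some sulphate groups of heparan are later removed at the cell surface by the Sulf enzymes. In cartilage the sulphated chondroitin chains of aggrecan hold water in the matrix, heparan chains bind secreted signals, and inherited defects of sulphate uptake or of PAPS synthesis cause skeletal dysplasias.

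Promoter windows are shown for the donor supply genes that fell, where RefSeq (GRCm38.p6) had one, and for Papss2, the most abundant of the 41 genes. Each is the 250 bases before an annotated start, read 5′ to 3′ on the strand of the gene, and capitals mark 1 of 2 short motifs searched on both strands. The first motif was AACAAT, a core of Sox sites, which reads ATTGTT on the other strand. The second was TGTGGT, a core of Runx sites, which reads ACCACA on the other strand. The motifs do not overlap each other in these windows. Papss2 has windows at chr19:32595465-32595714 and, inside the gene, at chr19:32619755-32620004, both on the plus strand. Papss1 has windows at chr3:131564518-131564767 and, inside the gene, at chr3:131565782-131566031, both on the plus strand, and the Slc35d1 window is chr4:103215177-103215426 on the minus strand.
Papss2, first window: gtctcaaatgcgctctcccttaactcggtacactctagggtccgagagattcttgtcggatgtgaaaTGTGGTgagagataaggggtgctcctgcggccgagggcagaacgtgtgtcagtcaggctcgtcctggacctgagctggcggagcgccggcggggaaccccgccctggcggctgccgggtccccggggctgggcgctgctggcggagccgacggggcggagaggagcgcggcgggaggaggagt
Papss2, second window: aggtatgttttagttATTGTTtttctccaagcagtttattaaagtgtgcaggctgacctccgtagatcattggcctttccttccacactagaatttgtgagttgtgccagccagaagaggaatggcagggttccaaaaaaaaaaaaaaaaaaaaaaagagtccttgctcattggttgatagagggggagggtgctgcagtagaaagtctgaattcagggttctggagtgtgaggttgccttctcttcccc
Papss1, first window: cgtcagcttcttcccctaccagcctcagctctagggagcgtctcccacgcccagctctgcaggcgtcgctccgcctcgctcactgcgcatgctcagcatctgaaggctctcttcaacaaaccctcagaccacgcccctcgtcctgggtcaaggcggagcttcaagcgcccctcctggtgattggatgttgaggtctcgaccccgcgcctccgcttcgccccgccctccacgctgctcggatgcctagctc
Papss1, second window: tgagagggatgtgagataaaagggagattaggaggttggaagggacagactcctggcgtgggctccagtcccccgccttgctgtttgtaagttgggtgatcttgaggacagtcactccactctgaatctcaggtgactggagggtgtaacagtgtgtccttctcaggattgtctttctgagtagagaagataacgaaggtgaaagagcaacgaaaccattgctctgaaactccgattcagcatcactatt
Slc35d1: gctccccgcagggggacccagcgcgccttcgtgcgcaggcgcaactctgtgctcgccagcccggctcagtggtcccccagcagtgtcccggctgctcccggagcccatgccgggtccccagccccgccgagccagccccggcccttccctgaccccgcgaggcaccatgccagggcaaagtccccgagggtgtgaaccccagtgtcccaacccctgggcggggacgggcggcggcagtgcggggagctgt
The TGTGGT of the first Papss2 window lies 183 to 178 bases before the start, and the ATTGTT of the second lies 235 to 230 bases before it. At the second Papss1 window ATTGTT begins 3 bases before the start and runs 3 bases past it, so only its first letters are in the printed bases and it is not in capitals. The first Papss1 window and that of Slc35d1 hold neither motif. The first Papss2 window holds 24 CG pairs and the second 1, the Papss1 windows 20 and 5, and the Slc35d1 window 22. In windows of 250 bases before and 50 after the start, 32 of the 41 genes had 40 entries, of which 3 (7.5%) held AACAAT and 2 (5%) held TGTGGT on either strand. Among all 32851 RefSeq windows the shares were 10.7% and 16.8%. The median number of CG pairs in the 250 bases was 17.5 in the members' windows and 6 in all windows. A match is a description of letters and not of binding. Slc26a2, Impad1, Xylt1, Csgalnact1, Chsy3, Ext1, Extl3, Ndst1 and Sulf1 were not matched.

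The libraries held 30373440 and 36644496 estimated counts in PC and 15246529 and 21866266 in HC, so the HC values rest on fewer reads. The mitochondrial share of counts was between 8.81% and 13.2% in PC and between 14.1% and 20.2% in HC, and HC replicate 3 stood apart in the gene model Gm10800, at 8.75% against 1.75% to 2.67% in the others. The labelled zones were checked with marker lists. Of 10 hypertrophic markers 4 rose, and their summed TPM (a level per unit of transcript length, with the same total in every library) was 547 and 1440.5 in PC and 14265 and 24403 in HC. Of 11 general chondrocyte markers none passed with edgeR, and they summed to 27920 and 19565 TPM in PC and 8853 and 14184 TPM in HC. At an unadjusted edgeR p under 0.05 there were 7 (27% of all genes tested). DESeq2 called 6 lower and 1 higher (8.7% and 9.81% of all genes). Markers of other cells summed to higher levels in HC, but not every marker rose. Col1a1, which is in the perichondrium and the osteoblast list, had 100.4 and 170 TPM in PC and 1276 and 681 TPM in HC. Of 11 tested perichondrium genes, both HC libraries lay above both PC libraries in scaled counts for 5 and below them for 4. Over all genes the shares were 27.7% and 33.3%. The sums were 666 to 715 in PC and 1388 to 2368 in HC for perichondrium and fibroblasts (2 of 11 tested rose and 1 fell), 126 to 199 and 846 to 1460.4 for osteoblasts (1 of 7 rose), and 35.2 to 56.7 and 64.4 to 164 for skeletal muscle (1 of 9 rose). They were 17.7 to 26.6 and 77.8 to 83.4 for endothelium (3 of 8 rose), 18.0 to 30.02 and 175 to 235 for macrophages and osteoclasts (4 of 10 rose), and 68.6 to 101 and 459 to 701 for red blood cells (4 of 8 rose). Over all genes tested 2.75% rose and 1.96% fell with edgeR. Of defining markers, Twist2 of perichondrium, Bglap2 of osteoblasts and Myod1 of muscle were at 0 counts in both HC libraries, Dpt of fibroblasts and Cldn5 of endothelium in HC replicate 3, and Myog of muscle in HC replicate 4. Their part in the results below was not tested. In bulk libraries fewer cells of a type and less RNA per cell cannot be told apart.

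Most genes of the pathway had lower levels in hypertrophic than in proliferating chondrocytes, while the desulphating enzymes Sulf1 and Sulf2 moved in opposite directions. Slc26a2, Papss1 and Slc35d1 of sulphate and sugar supply, Ext2 and Extl1 of the heparan chain and the sulphatase Sulf2 fell, and the sulphatase Sulf1 rose. Of the 39 members with enough reads for the test, 6 fell and 1 rose with edgeR's quasi-likelihood test at an adjusted p under 0.05, where 1.96% of all 16607 genes tested fell and 2.75% rose. The median log2 fold change of HC over PC was -0.98 over the 39 members and -0.04 over all genes tested, and it was negative for 32 of the members and for 51.3% of all genes. In CPM, the TMM-scaled share of a library's counts, both HC libraries lay below both PC libraries for 29 of the 39 members, against 33.3% of all genes, and above both for 3, against 27.7%. At an unadjusted p under 0.05 there were 22 members, against 27% of all genes. Scaling to library size alone, and limma-trend on log2(TPM + 1), each left 0 members and 0 genes called, with 25 and 21 members at an unadjusted p under 0.05. These settings moved the median of all genes to -0.29 and -0.39 on the log2 scale, and that of the members to -1.23 and -1.34. Limma-trend on TPM moved Papss2 to -3.29, Slc35b2 to -3.33, Xylt1 to -2.01 and Csgalnact1 to -2.49. It moved Dsel to -1.03, Sulf2 to -3.10 and Hs3st1 to 1.79. Each of these moved by over 1.5 times from the edgeR value given below. Other settings moved the members' count together with that of all genes. Leaving out 1 library gave 6 lower and 1 higher without PC replicate 1 (1.41% and 2.08% of all genes), 11 and 1 without PC replicate 2 (2.98% and 3.28%), 18 and 3 without HC replicate 3 (15.2% and 13.1%), and 19 and 3 without HC replicate 4 (20.7% and 18.3%). DESeq2 gave 15 lower and 3 higher (8.7% and 9.81% of all genes), edgeR with no filter on low counts gave 13 and 2 (4% and 3.99%), and edgeR with a length offset, which takes account of transcript lengths, gave 2 and 0 (0.933% and 1.51%).

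**Figure D1:**
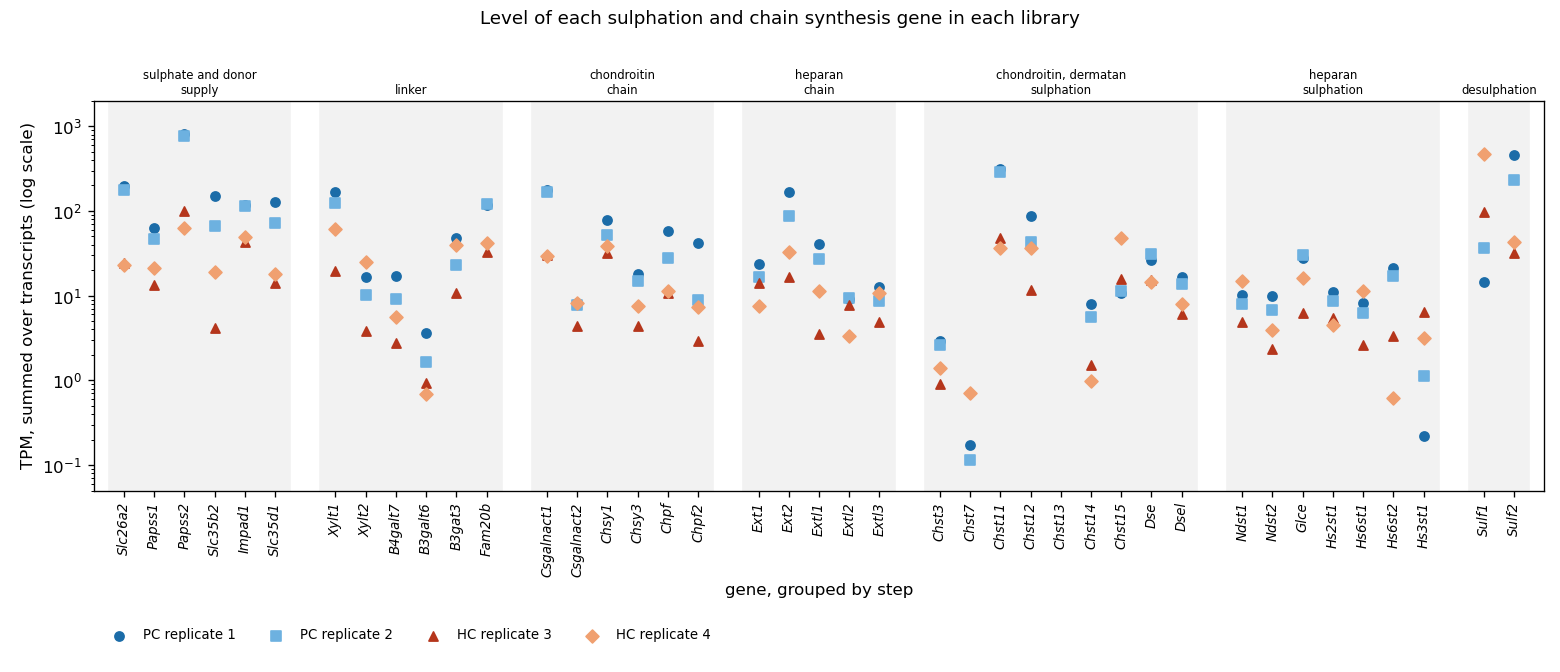
TPM of each of the 41 genes in each of the 4 libraries on a log axis, grouped by step. Papss2 stands highest in PC at 810.5 and 768 TPM and Sulf1 highest in HC by the mean (96.4 and 467.5 TPM), with Papss2 above it in HC replicate 3 at 100.3 TPM; values of 0 (Chst13 in every library, Chst7 in HC replicate 3) cannot be drawn on a log axis.

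The plot of levels by gene shows how unevenly the pathway was expressed. By mean level Papss2, Sulf2 and Chst11 led in PC, in that order, and Sulf1, Papss2 and Impad1 in HC. In single libraries the order differed, with Chst11 above Sulf2 in PC replicate 2 and Papss2 above Sulf1 in HC replicate 3. At the low end, Chst13 had no count in any library, which allows up to 0.0872, 0.0779, 0.244 and 0.135 CPM in PC replicates 1 and 2 and HC replicates 3 and 4 (3 counts a library, counting error only). Chst7 had 8, 7, 0 and 26 estimated counts in the same order of libraries. Neither entered the test.

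**Figure D2:**
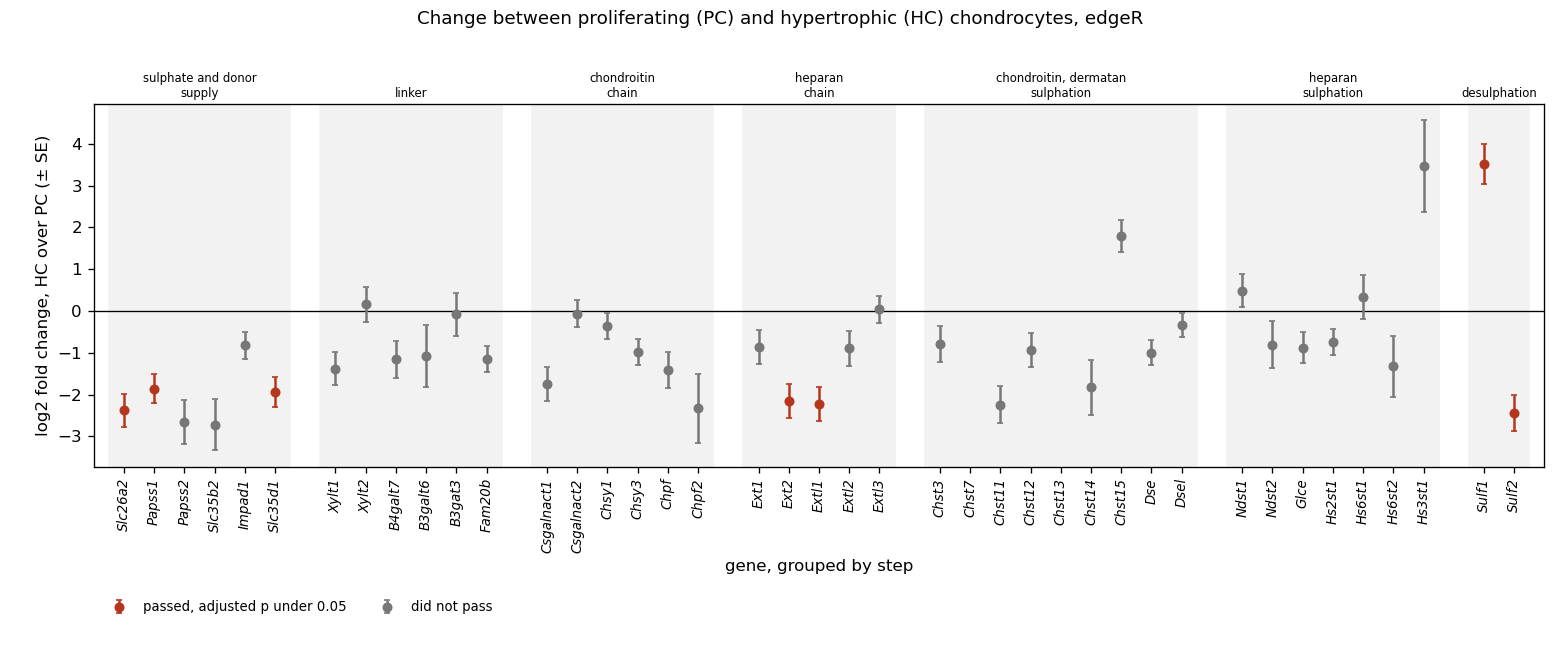
Fitted log2 fold change of HC over PC with its SE for the 39 tested genes, n = 2 libraries per group, with red for an edgeR adjusted p under 0.05. The 6 genes that fell lie between -2.44 and -1.86 and Sulf1 lies at 3.51; Chst7 and Chst13 were not tested.

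The plot of fold changes by step shows the sulphate and donor supply genes all below 0, while the chain and sulphation steps hold genes near 0 as well. In what follows, levels are TPM in the order PC replicate 1, PC replicate 2, HC replicate 3 and HC replicate 4, and the fitted change is edgeR's log2 fold change of counts, HC over PC, ± SE with n = 2 per group. Because 2 units are used, a ratio of TPM values need not equal the fitted change.

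Sulphate uptake and donor supply held 3 of the 6 genes that fell, and its 6 genes had a median log2 fold change of -2.16. Over all genes tested 1.96% fell. Slc26a2, the sulphate transporter of the cell membrane (chromosome 18), had levels of 199, 177, 24.1 and 23.2 TPM. The HC levels in TPM were close to each other and far below both PC values. In CPM the HC libraries were not close, at 232 and 138, against 927 and 997 in PC. Slc26a2 fell by a fitted change of -2.38 ± 0.39, 5.19-fold (edgeR adjusted p = 0.0392). The change in Slc26a2 lay between -2.83 and -2.10 in the 4 fits that left out 1 library. Papss2, which with Papss1 makes PAPS from sulphate and ATP, had 810.5, 768, 100.3 and 63.2 TPM. Its log2 fold change was -2.66 ± 0.53 and did not pass, with an edgeR adjusted p of 0.0509. DESeq2 called Papss2 lower (adjusted p = 4.11e-07), as did edgeR with no filter on low counts (0.00256). It did not pass with edgeR under RLE factors (0.0516), library size alone (0.0515) or the length offset (0.0587). Limma-trend on TPM did not call it either (0.0577). The change in Papss2 was -3.49 without HC replicate 3 and -2.19 without HC replicate 4, the ends of its range in the 4 fits without 1 library.

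Papss1 (chromosome 3, 131564768 to 131643671) had lower levels than Papss2 in every library, at 62.2, 46.1, 13.3 and 21.2 TPM. It fell by -1.86 ± 0.35 on the log2 scale (edgeR adjusted p = 0.0479). This call ended without PC replicate 1 (adjusted p = 0.214) and with the length offset (-1.23, adjusted p = 0.104). Slc35b2, which carries PAPS into the Golgi, had 150, 67.4, 4.17 and 18.8 TPM, with both the PC and the HC libraries far from each other. It did not pass, at -2.72 ± 0.61 (edgeR adjusted p = 0.0641), and was at -2.06 without PC replicate 1 and at -3.60 without HC replicate 4. DESeq2 called Slc35b2 lower (adjusted p = 8.39e-05), as did edgeR with no filter (0.00281). It did not pass with edgeR under RLE factors (0.0651), library size alone (0.0835) or the length offset (0.0669). Limma-trend on TPM did not call it either (0.0789). Slc35d1, which carries nucleotide sugars for chondroitin into the endoplasmic reticulum (chromosome 4, 103170649 to 103215164), had 129, 71.7, 14.04 and 17.9 TPM. Slc35d1 fell by -1.95 ± 0.36 (edgeR adjusted p = 0.0454), a call that ended without PC replicate 1 (0.078) and with the length offset (0.0504). Impad1, the Golgi phosphatase that clears the by-product of sulphation, was the least different of the step at -0.82 ± 0.32 (edgeR adjusted p = 0.172). Its levels of 119, 115, 43.0 and 49.9 TPM did not overlap between the groups, and Impad1 stood 9th among the members in PC and 3rd in HC.

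The linker step had no gene that passed with edgeR, and a median log2 fold change of -1.11. At an unadjusted edgeR p under 0.05 there were 3 of 6 (27% of all genes tested). DESeq2 called 2 lower (8.7% of all genes). Xylt1, which adds the xylose that starts the linker, was the most abundant of them at 168, 124, 19.6 and 62.1 TPM. Both HC values were below both PC values, with a fitted change of -1.38 ± 0.39 (edgeR adjusted p = 0.0954). Xylt2, the other xylosyltransferase, had 16.5, 10.2, 3.86 and 24.7 TPM, with the HC libraries on either side of the PC libraries. Its log2 fold change was 0.16 ± 0.42 (edgeR adjusted p = 0.844) and turned to -0.08 with library size alone, -0.33 with limma-trend on TPM, -0.15 when PC replicate 2 was left out and -0.25 without HC replicate 4.

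Fam20b, the kinase that phosphorylates the xylose, had 119, 119.7, 33.2 and 42.2 TPM, so that the replicates lay close together and the groups apart. The log2 fold change of Fam20b was -1.14 ± 0.31 (edgeR adjusted p = 0.088). The galactosyltransferase B4galt7 had 17.1, 9.24, 2.73 and 5.54 TPM and a fitted change of -1.16 ± 0.44 (edgeR adjusted p = 0.16). B3galt6, which adds the next galactose, was at 3.64 TPM or below in all libraries, with a fitted change of -1.08 that was -1.73 without HC replicate 3. B3gat3, which closes the linker with glucuronic acid, had overlapping groups, and its log2 fold change of -0.08 turned to 0.36 without PC replicate 1 and 0.37 without HC replicate 3 and was -0.87 without HC replicate 4. In CPM both HC libraries lay below both PC libraries for 4 of the 6 linker genes, and the groups overlapped for 2, Xylt2 and B3gat3. Over all genes tested 33.3% lay wholly below and 27.7% wholly above.

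Chondroitin chain genes likewise had none that passed with edgeR, and a median log2 fold change of -1.19. At an unadjusted edgeR p under 0.05 there were 4 of 6 (27% of all genes tested). DESeq2 called 3 lower (8.7% of all genes). Csgalnact1, which adds the sugar that commits the linker to chondroitin, had 177, 169, 30.5 and 29.6 TPM. The groups of Csgalnact1 did not overlap, the HC libraries were close in TPM but not in CPM (145.7 and 78.6), and the log2 fold change was -1.75 ± 0.40 (edgeR adjusted p = 0.0664). Its relative Csgalnact2 had 8.09, 7.66, 4.35 and 8.29 TPM, and a fitted change of -0.06 ± 0.33 (edgeR adjusted p = 0.928) that turned to 0.07 with the length offset and 0.09 without HC replicate 3. The difference between these related genes was not tested.

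The chondroitin polymerases varied among themselves. Chpf had 58.4, 27.5, 10.9 and 11.4 TPM and a fitted change of -1.41 ± 0.43 (edgeR adjusted p = 0.106). Chpf2 had 42.2, 8.89, 2.90 and 7.45 TPM, where PC replicate 1 stood far above the rest. The log2 fold change of Chpf2 was -2.33 ± 0.82 (edgeR adjusted p = 0.14), and was -1.64 without PC replicate 1 or without HC replicate 3 and -3.99 without HC replicate 4. Chsy1, the most abundant polymerase, had a log2 fold change of -0.36 ± 0.31 with overlapping CPM, and Chsy3 had -0.98 ± 0.31 without overlap (edgeR adjusted p = 0.52 and 0.115).

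In the heparan chain step 2 of 5 genes fell (1.96% of all genes tested) and 3 did not pass, with a median log2 fold change of -0.89. Ext2, which forms the heparan polymerase together with Ext1 (chromosome 2, 93661028 to 93822568), had 169, 87.4, 16.6 and 32.5 TPM. Ext2 fell by -2.16 ± 0.41 on the log2 scale, 4.48-fold (edgeR adjusted p = 0.0479). Its partner Ext1 had 23.6, 16.7, 14.1 and 7.58 TPM and a fitted change of -0.86 ± 0.40 (edgeR adjusted p = 0.238), -0.48 without HC replicate 4 and -1.48 without HC replicate 3. Extl1, a related transferase (chromosome 4, 134356372 to 134383850), had 40.7, 27.3, 3.50 and 11.4 TPM and fell by -2.22 ± 0.41 (edgeR adjusted p = 0.046). Both calls ended without PC replicate 1, at adjusted p = 0.113 for Ext2 and 0.175 for Extl1, and with the length offset, at 0.0626 and 0.0894. Extl2 had a log2 fold change of -0.89 without overlap in CPM, and -0.18 with the length offset (adjusted p = 0.903). Extl3, which starts the heparan chain, had overlapping groups at 12.6, 8.73, 4.91 and 10.8 TPM. Its log2 fold change of 0.04 turned to -0.20 with library size alone, -0.06 with the length offset, -0.46 with limma-trend on TPM, -0.16 without PC replicate 2 and -0.27 without HC replicate 4.

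Of the 9 genes that sulphate and epimerise chondroitin and dermatan, 7 were tested and none passed with edgeR. At an unadjusted edgeR p under 0.05 there were 4 (27% of all genes tested). DESeq2 called 2 lower and 1 higher (8.7% and 9.81% of all genes). Their median log2 fold change was -0.93. Chst11, the main chondroitin 4-O-sulphotransferase of cartilage, had 314, 287, 48.3 and 36.8 TPM. The groups did not overlap. In CPM the PC libraries were close, at 1126 and 1179, and the HC libraries were not, at 328 and 160.4. The log2 fold change was -2.24 ± 0.45 with an edgeR adjusted p of 0.0518. Chst11 had -2.88 without HC replicate 3, and its adjusted p lay between 0.00129 and 0.00961 in the 4 fits without 1 library. Chst12, of the same activity, had 87.3, 43.0, 11.8 and 36.6 TPM and a fitted change of -0.93 ± 0.40 (edgeR adjusted p = 0.201). Chst3, the 6-O-sulphotransferase, was low at 2.94, 2.58, 0.900 and 1.40 TPM, with a fitted change of -0.79.

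Chst15, which adds a further sulphate to units that Chst11 or its relatives have sulphated, ran the other way. Its levels of 10.7, 11.2, 15.7 and 47.5 TPM were higher in both HC libraries, most of all in HC replicate 4, and the fitted change of 1.80 ± 0.38 missed the threshold (edgeR adjusted p = 0.0573). DESeq2 called Chst15 higher (adjusted p = 0.000205) and Chst11 lower (2.63e-06), as did edgeR with no filter on low counts (0.00993 and 0.00407). Neither gene passed with edgeR under RLE factors (adjusted p = 0.0554 for Chst15), library size alone (0.104) or the length offset (0.0773). Limma-trend on TPM called neither (adjusted p = 0.259 for Chst15). Without single libraries the log2 fold change of Chst15 lay between 1.28 and 2.13. Chst15 made up 3.30%, 3.76%, 24.6% and 56.3% of the summed TPM of Chst15 and Chst11. On the side of dermatan, the sulphotransferase Chst14 had 8.08, 5.53, 1.51 and 0.972 TPM and a fitted change of -1.83 ± 0.65 (edgeR adjusted p = 0.144), -2.63 without HC replicate 3. The epimerase Dse had 26.6, 30.8, 15.3 and 14.49 TPM and a fitted change of -1.0 ± 0.30 (edgeR adjusted p = 0.103), which was -0.46 with the length offset. Its relative Dsel had -0.33 ± 0.29.

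Heparan sulphation and epimerisation genes were present at low levels, with a median log2 fold change of -0.74 over 7 genes. None passed with edgeR, and 1 had an unadjusted edgeR p under 0.05 (27% of all genes tested). DESeq2 called 1, higher in HC (9.81% of all genes). Glce, the epimerase of heparan, was the most abundant of them at 28.05, 30.1, 6.29 and 16.3 TPM. Its log2 fold change was -0.88 ± 0.37 (edgeR adjusted p = 0.198). The N-deacetylase and sulphotransferase Ndst1 had 10.3, 7.99, 4.89 and 14.8 TPM and a fitted change of 0.49 ± 0.39, which turned to -0.06 with limma-trend on TPM and -0.12 without HC replicate 4. Hs6st1, a 6-O-sulphotransferase, had 0.33 ± 0.53 and turned to -0.28 and -0.62 under the same settings. In both genes HC replicate 4 was the highest library and HC replicate 3 the lowest in TPM. Ndst2 had -0.81 ± 0.56 and -0.33 without HC replicate 3, and -1.70 without HC replicate 4. Hs2st1 had -0.74 ± 0.32, and Hs6st2 had -1.32 ± 0.73, which was -2.73 without HC replicate 3 and -0.66 without HC replicate 4. With the length offset Hs6st2 was at -2.61 and with limma-trend on TPM at -2.91, and short models under 1000 bases held 79.4%, 82.5%, 52.5% and 0.0% of its TPM in the 4 libraries. Hs3st1, a 3-O-sulphotransferase of low level, had 0.221, 1.12, 6.48 and 3.15 TPM and a fitted change of 3.47 ± 1.10, which missed the threshold (edgeR adjusted p = 0.115). Leaving out PC replicate 1 gave 2.79 for Hs3st1, leaving out PC replicate 2 gave 4.66, and leaving out HC replicate 3 gave 2.81.

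Sulf1 and Sulf2, secreted enzymes that remove 6-O-sulphate from heparan at the cell surface, differed in direction, with Sulf1 up and Sulf2 down. Sulf2 (chromosome 2, 166073089 to 166155663) had 457, 235, 32.3 and 43.4 TPM, the second highest mean level of the 41 genes in PC. It fell by -2.44 ± 0.43 on the log2 scale, 5.44-fold (edgeR adjusted p = 0.0427). Sulf1 (chromosome 1, 12692277 to 12861192) had 14.7, 36.3, 96.4 and 467.5 TPM, so that both HC values were above both PC values but differed from each other more than those of Sulf2. Sulf1 rose by 3.51 ± 0.48 (edgeR adjusted p = 0.0359), 11.4-fold, and by 2.90 without HC replicate 4. In the 4 fits without 1 library the change of Sulf1 lay between 2.90 and 3.88 and that of Sulf2 between -2.96 and -2.13. With the length offset Sulf2 kept its call (adjusted p = 0.0479) and Sulf1 did not (0.0597).

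The levels summed over the genes of each step were compared as a description, since an exact permutation test of 2 against 2 libraries cannot give a two-sided p below 0.33. Sulphate uptake and donor supply summed to 1469.8, 1246, 199 and 194 TPM, 6.91-fold lower in HC. Papss2 alone made up more of the PC sum than the other 5 genes together. The linker summed to 372, 288, 71.2 and 175 TPM, a log2 ratio of group means of -1.42 that was -2.21 without HC replicate 4. The chondroitin chain summed to 382, 280.1, 84.5 and 103.3 TPM and the heparan chain to 255, 149.6, 46.9 and 65.6 TPM. These ratios were -1.82 and -1.85 in TPM and -1.15 and -1.18 in CPM. Sulphation and epimerisation summed to 467, 394, 99.6 and 146 TPM for chondroitin and dermatan and to 88.6, 77.7, 31.3 and 54.8 TPM for heparan. For heparan the log2 ratio was -0.95 in TPM and -0.29 in CPM, and the CPM sums of the groups overlapped. For supply the ratio was -2.79 in TPM and -2.11 in CPM. The Sulf genes summed to 472, 272, 129 and 511 TPM, and HC replicate 3 was the lowest and HC replicate 4 the highest library. Their log2 ratio of -0.22 was 0.24 without PC replicate 1, 0.46 without HC replicate 3, -1.53 without HC replicate 4 and -1.33 over transcripts of at least 1000 bases.

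**Figure D3:**
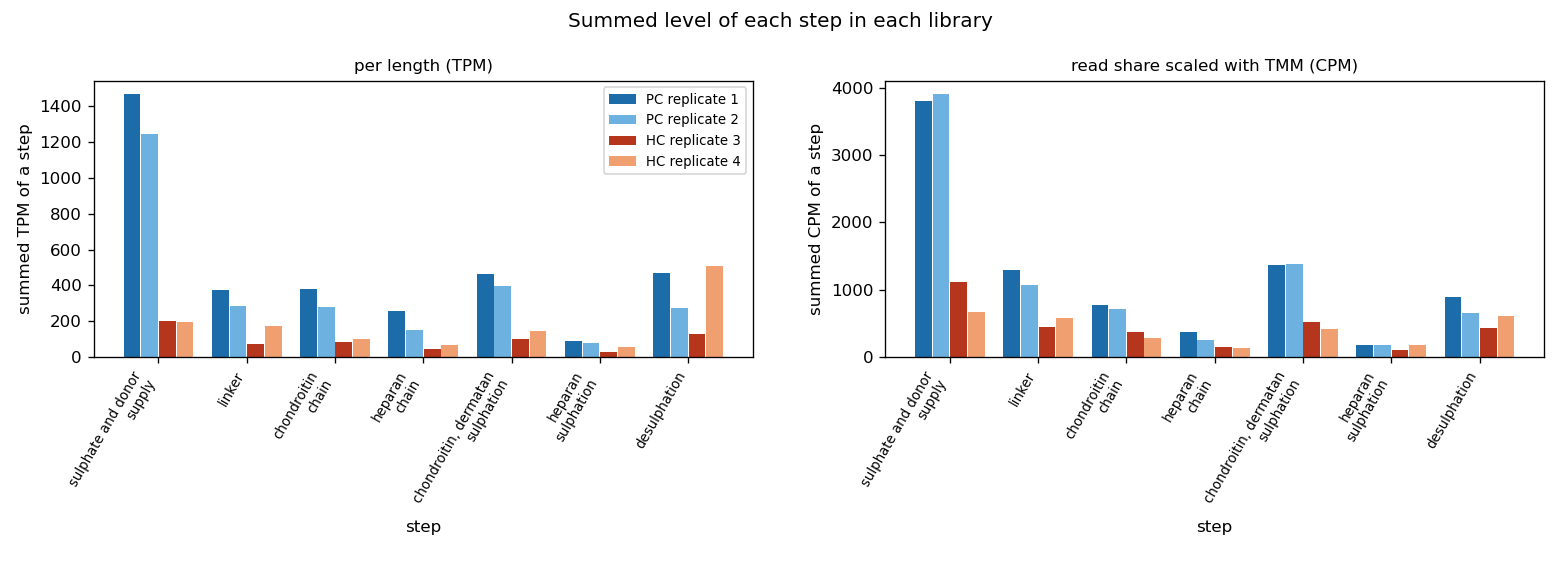
Summed level of the genes of each step in each library, in TPM (left) and in CPM scaled with TMM factors (right), with bars from 0. Donor supply runs from 1469.8 and 1246 TPM in PC to 199 and 194 TPM in HC, while the Sulf genes sum to 129 and 511 TPM in HC.

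The plot of step sums shows supply as the tallest step in PC on both scales, and a smaller excess of PC over HC in CPM than in TPM for supply and both chains. The share of each gene in a pair of related genes does not depend on the scaling of a library, and is given with no test because the pairs were chosen with their values known. Sulf1 made up 3.11% and 13.4% of the Sulf1 and Sulf2 TPM in PC, and 74.9% and 91.5% in HC. Csgalnact1 made up 95.6% and 95.7% of its pair with Csgalnact2 in PC and 87.5% and 78.1% in HC. Xylt1 made up 91.1% and 92.4% of its pair with Xylt2 in PC and 83.5% and 71.6% in HC. In each of these pairs the 2 zones did not overlap. How often pairs drawn from all genes separate in this way was not computed. For single genes in CPM, HC lay wholly below PC in 33.3% of all genes and wholly above in 27.7%. The zones also separated for Ndst1 with Ndst2 (51.0% and 54.2% in PC, 67.8% and 78.9% in HC). Chst11 with Chst3 separated too (99.07% and 99.11%, 98.2% and 96.3%). Dse with Dsel overlapped (61.3% and 69.0%, 71.8% and 64.3%). The share of Papss2 in its pair with Papss1 was 92.9% and 94.3% in PC and 88.3% and 74.9% in HC. Over transcripts of at least 1000 bases it was 94.0% and 96.5% in PC and 95.9% and 88.1% in HC, and the zones overlapped.

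**Figure D4:**
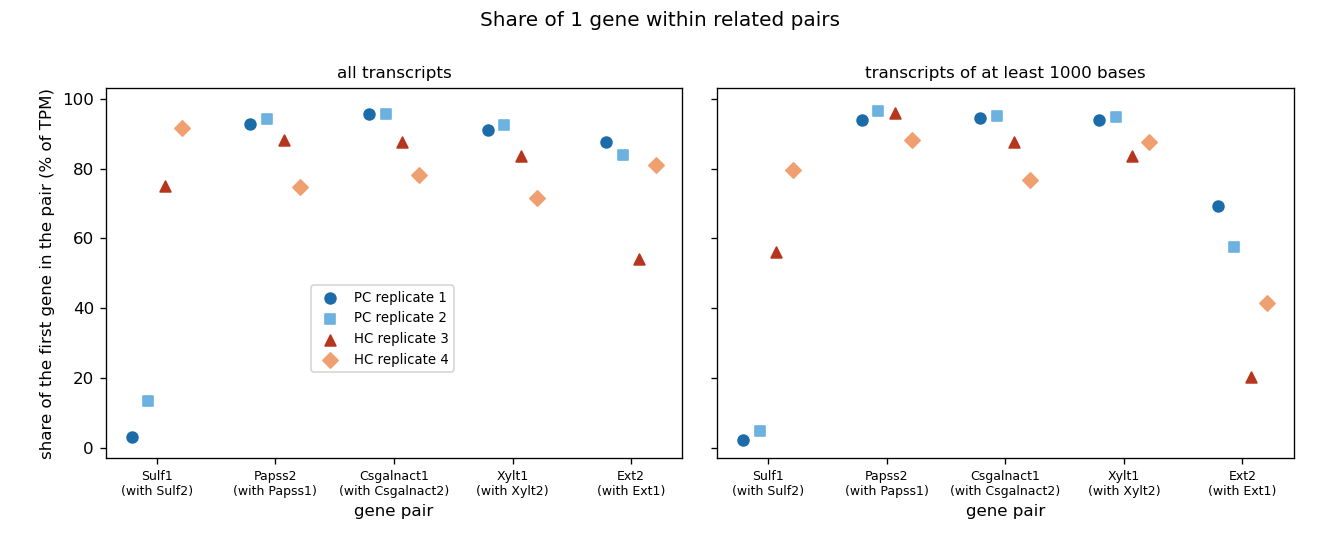
Share of the first gene in the summed TPM of a pair of related genes, in percent, for each library, over all transcripts (left) and over transcripts of at least 1000 bases (right). The Sulf1 share is 3.11% and 13.4% in PC against 74.9% and 91.5% in HC on the left, and 2.07% and 4.71% against 56.0% and 79.7% on the right.

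The right panel of the plot of shares is given because short transcript models held much of the TPM of some genes. In Sulf1 they held 44.8%, 70.1%, 57.4% and 70.5% of the TPM in the 4 libraries, and in Ext2 75.2%, 77.8%, 90.7% and 83.4%. A 366-base model, Sulf1-210, had 292 of the 467.5 TPM of HC replicate 4. Over longer models the separation of the zones in the Sulf1 share was kept, and so was that in the Csgalnact1 and Xylt1 shares. The share of Ext2 in its pair with Ext1 was 87.7%, 83.98%, 54.1% and 81.1% over all models and 69.2%, 57.4%, 20.3% and 41.5% over the longer ones. PC replicate 2 and HC replicate 4 were close over all models and farther apart over the longer ones.

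The use of transcripts within a gene was tested in 28 of the 41 genes, and 0 passed with edgeR's diffSpliceDGE, against 0.196% of 9183 genes. At an unadjusted p under 0.05 there were 5, namely Glce, Chst3, Slc26a2, Papss1 and Csgalnact1, against 21.1% of all genes tested. The closest was Glce (unadjusted p = 0.0133, adjusted p = 0.15). Glce-203, a coding model, had 1372, 1751, 0 and 525 estimated counts, while Glce-201, another coding model, had 0, 0, 222 and 224. Glce passed without HC replicate 3 (adjusted p = 0.02) and without HC replicate 4 (0.00616). Without HC replicate 4, 5 members passed, as did 14.2% of all genes tested; without HC replicate 3, 1 member passed and 4.07% of all genes, and without either PC replicate none passed.

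Papss1 had 1141 and 696 estimated counts of the coding model Papss1-201 in PC and 0 in both HC libraries (unadjusted p = 0.0296, diffSpliceDGE adjusted p = 0.19 for the gene). Papss1-205, also coding, had 1412, 1257, 0 and 119 counts. What remained in HC was assigned to Papss1-202, a coding model of 492 bases, at 9.02 and 12.7 TPM, and to Papss1-204, annotated for nonsense-mediated decay, at 4.24 and 5.87 TPM. These assignments are estimates among overlapping models, and the tables used here carry no error for them.

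**Figure D5:**
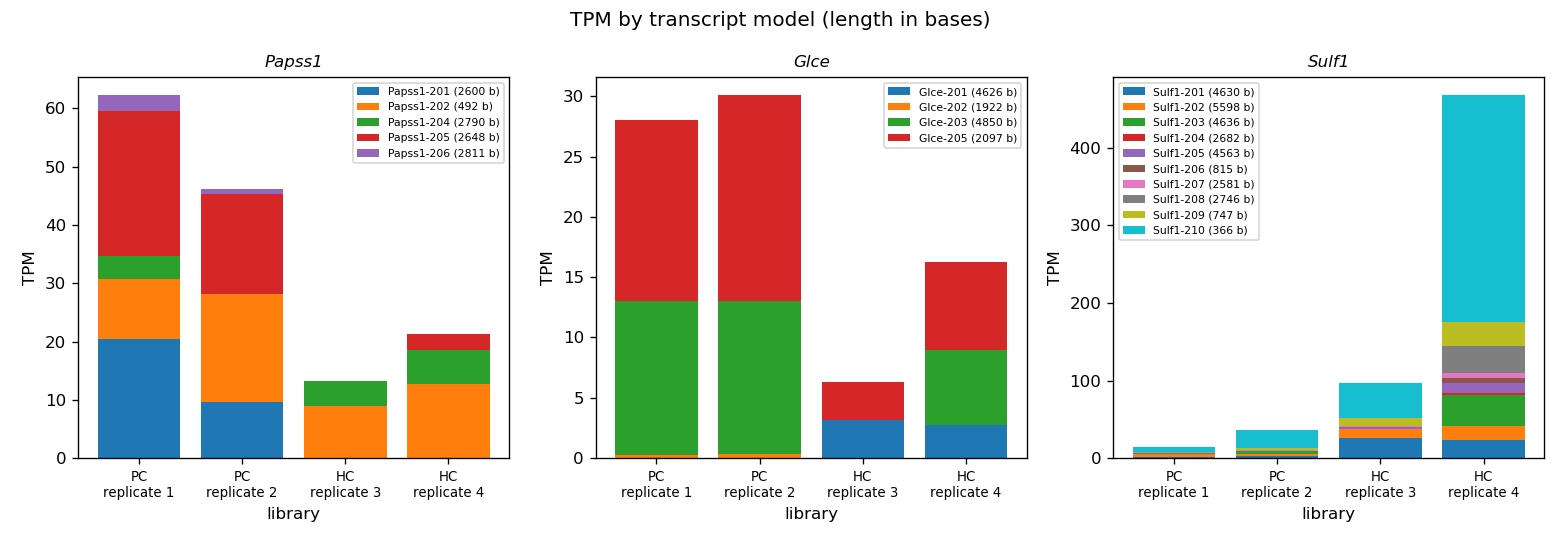
TPM of each transcript model of Papss1, Glce and Sulf1 in each library, stacked, with model length in bases. Papss1-201 is at 20.4 and 9.66 TPM in PC and 0 in both HC libraries, and Sulf1-210 makes up 292 of 467.5 TPM in HC replicate 4.

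The plot of transcript models shows the long coding Papss1 models at or near 0 in HC, Glce-201 with counts in the HC libraries alone and Sulf1 spread over 10 models. None of these differences in use passed in the fit of all 4 libraries.

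Other genes of the pathway were taken in 6 lists. Of 84 genes 77 were tested, 4 rose and 3 fell with edgeR (2.75% and 1.96% of all genes), and the median log2 fold change was -0.49. In nucleotide sugar supply 1 of 14 fell, namely Gfpt1, which commits glucose to hexosamines, at 111, 86.4, 22.0 and 36.6 TPM and -1.57 ± 0.29 (edgeR adjusted p = 0.0462). Its call ended when either PC library was left out (adjusted p = 0.121 for replicate 1 and 0.0559 for replicate 2) and with the length offset (0.0867). The median of that list was -0.75. Ugdh, which makes UDP-glucuronic acid, missed the threshold at -0.77 ± 0.29 (edgeR adjusted p = 0.164). In sulphate and nucleotide handling 1 of 8 fell, the xylose phosphatase Pxylp1, which undoes the step of Fam20b. Its levels were 81.5, 49.9, 8.004 and 14.7 TPM, with a fitted change of -1.86 ± 0.36 (edgeR adjusted p = 0.0493) that lost its call without PC replicate 1 (0.226) and, by a small margin, with RLE factors (0.0501). Of 10 tested transferases outside the 41, 0 passed with edgeR, and their median was -1.31. At an unadjusted edgeR p under 0.05 there were 4 (27% of all genes tested). DESeq2 called 2 lower (8.7% of all genes).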

How the data were processed

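Trimmomatic 0.36, kallisto 0.43.1 and the build mm10 are named by the submitters' processing notes, and a library kit for degraded RNA by the labels' protocols. For each transcript the authors' deposited tables give, per the file headers, its length, effective length, estimated count and TPM. The strand setting and the annotation release were not given in the sources used here, so reads of overlapping or antisense genes cannot be told apart. Of 109282 transcripts 107987 matched GENCODE M21 by identifier. Counts were summed per gene and rounded, TPM summed per gene and per step, and coordinates are 1-based in GRCm38. Members came from 163 transcripts.

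Tests used R 4.3.3 with edgeR 4.0.16 (filterByExpr, TMM, quasi-likelihood F-test, two-sided, Benjamini-Hochberg over 16607 genes, threshold 0.05), and diffSpliceDGE for transcript use. The SE is the fold change divided by the root of F. TMM factors were 1.14, 1.058, 0.812 and 1.021. The alternatives were RLE factors, library size alone, no filter, a length offset, DESeq2 1.42.0, limma 3.58.1 on log2(TPM + 1) and leaving out each library, where the lone library is assumed to vary like the other group. The edgeR gene fit was tested on simulated counts, with less spread between libraries than in these data and larger changes than most members had. Libraries of a group were not copies, since chi-square per degree of freedom between their counts was 102 in PC and 193 in HC.

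The 41 genes, their 7 steps, the 6 further lists, the 8 marker lists and the tests were chosen with earlier results of these data known. Full values are given for members that passed, the most abundant member of each step, and members with groups that did not overlap, a log2 fold change of at least 1 either way and an unadjusted p under 0.05. Of other lists, genes that passed are named, and up to 3 of the most abundant. Protein sequences were not used here.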

Additional observations from a re-analysis of the deposited data

How the results depend on the processing

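No paired analysis was possible because the PC replicates are numbered 1 and 2 and the HC replicates 3 and 4. RLE factors changed no member's call. Against 6 members lower and 1 higher, there were 0 and 0 with library size alone and with limma-trend on TPM, 13 and 2 with no filter, 2 and 0 with the length offset, and 15 and 3 with DESeq2; without single libraries there were 6 to 19 lower and 1 to 3 higher. Over all genes, 325 lower and 457 higher became 0 and 0 with library size alone and with limma-trend, 965 and 963 with no filter, 155 and 251 with the length offset, 1445 and 1629 with DESeq2, and 257 to 3775 and 379 to 3331 without single libraries. Members with a change in transcript use numbered 0 to 5 without single libraries. The cause of these moves was not tested. With single libraries left out, log2 ratios of summed TPM were -2.90 to -2.66 for supply, -2.21 to -0.91 for the linker, -2.02 to -1.58 for the chondroitin chain, -2.18 to -1.41 for the heparan chain, -2.11 to -1.56 and -1.41 to -0.60 for sulphation of chondroitin and of heparan, -2.23 to -1.31 for all members and -1.53 to 0.46 for the Sulf genes, where the value was 0.24 without PC replicate 1 and 0.46 without HC replicate 3. In CPM they were -2.11 for supply, -1.15 and -1.18 for the chains and -0.29 for heparan sulphation, and over transcripts of at least 1000 bases -1.33 for the Sulf genes. Directions turned for Xylt2 (-0.08 with library size alone, -0.33 with limma-trend and -0.25 to 0.47 without single libraries), Extl3 (-0.20 and -0.46 in the same settings, -0.06 with the length offset and -0.27 to 0.24), B3gat3 (-0.87 to 0.37), Csgalnact2 (0.07 with the length offset, and -0.32 to 0.09), Ndst1 (-0.06 with limma-trend, and -0.12 to 0.86) and Hs6st1 (-0.28 with limma-trend, and -0.62 to 0.84), each range being without single libraries. With 2 libraries a group and fewer reads in HC, small differences were not detectable. Sums over long transcripts, CPM shares of pairs and step sums without single libraries were added after the data were seen.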

Other observations

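Genes that carry, modify or break down the chains outside the 41 rose in a few places, where 2.75% of all genes tested rose and 1.96% fell. Among 7 tested keratan sulphate genes 1 rose, the sulphotransferase Chst1, at 2.23 and 1.93 TPM in PC and 7.08 and 20.5 TPM in HC (log2 fold change 3.12 ± 0.45 SE, n = 2 per group, edgeR adjusted p = 0.0365). Among 16 tested genes of breakdown, the heparan-cleaving enzyme Hpse rose from 2.76 and 3.19 TPM to 8.70 and 34.1 TPM (3.24 ± 0.53, edgeR adjusted p = 0.0392), and by 2.44 without HC replicate 4. The lysosomal hexosaminidase subunit Hexa fell from 81.2 and 47.9 TPM to 6.49 and 16.6 TPM (-2.05 ± 0.39, edgeR adjusted p = 0.0479), a call that ended without PC replicate 1 (0.0859). The median log2 fold change of the breakdown list was -0.12.

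Of 22 core proteins 2 rose and 0 fell with edgeR, against 2.75% and 1.96% of all genes, with a median of -0.05. At an unadjusted p under 0.05 there were 10 (27% of all genes), and DESeq2 gave 5 higher and 4 lower (9.81% and 8.7%). Both that rose carry heparan chains on the cell surface, as do other glypicans and syndecans of the list that did not pass with edgeR. Gpc1 had 16.9 and 10.99 TPM in PC and 26.45 and 87.6 TPM in HC (2.38 ± 0.45, edgeR adjusted p = 0.0479), and rose by 1.71 without HC replicate 4. Sdc2 had 18.2 and 15.6 TPM in PC and 32.3 and 92.5 TPM in HC (2.27 ± 0.39, edgeR adjusted p = 0.0406). With the length offset the adjusted p was 0.0593 for Gpc1, 0.0538 for Sdc2 and 0.0597 for Hexa. Chst1, Hpse, Gpc1, Sdc2 and Sulf1 were each highest in HC replicate 4. Epyc, an abundant chondroitin or dermatan core protein of cartilage, missed the threshold at -2.15 ± 0.64 (edgeR adjusted p = 0.103), with -3.40 when HC replicate 3 was left out and -1.55 when HC replicate 4 was.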
